A study of Homo sapiens with 24 samples.

Results

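The genes described here are the 7 FOS and JUN subunits of the AP-1 transcription factor: FOS (ENSG00000170345), FOSB (ENSG00000125740), FOSL1 (ENSG00000175592) and FOSL2 (ENSG00000075426) of the FOS family, and JUN (ENSG00000177606), JUNB (ENSG00000171223) and JUND (ENSG00000130522) of the JUN family. They were chosen by name, through their GENCODE v29 symbols, and make up 7 of the 57500 genes in the count tables. The rule uses no measured value, and all 7 passed the filter on low counts in every comparison.

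AP-1 is a dimer of basic leucine zipper (bZIP) proteins. JUN proteins pair with each other or with FOS proteins, whereas FOS proteins bind DNA as partners of JUN proteins. FOS, FOSB, JUN and JUNB are immediate early genes, whose short-lived mRNAs appear within minutes of growth factors, heat, radiation and other stress without new protein synthesis. In squamous epithelium and its carcinomas AP-1 controls genes of differentiation, invasion and inflammation, and FOSL1 is often abundant in tumor cells.

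Total RNA was sequenced from whole spheroids of FaDu and SAS, both established human head and neck squamous cell carcinoma lines. Each type was left as an untreated control, irradiated (RT; FaDu received 7 Gy, SAS 10 Gy), heated (HT; 42.5 °C for 60 min), or heated and then irradiated with the dose of its type (HT+RT), and all were collected 0.5 h after treatment. The study's methods state that control plates were sealed and kept at culture temperature in parallel, and that irradiation used X-rays at room temperature. The 8 groups hold 3 libraries each, from independent experiments by the same methods. The model is limited to 2 lines grown as monocultures on agarose, and the RT dose differs between them, so line and dose cannot be told apart in any contrast of the irradiated groups. In bulk RNA, fewer cells with a transcript and less of it per cell cannot be told apart.

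The 24 libraries held 15203484 to 29452514 counts, and the lowest count of any member in any library was 28, for FOSB in SAS control replicate 1. All intervals are 95% intervals from the fit and reflect the spread among libraries. In FaDu, replicate 1 stood apart from replicates 2 and 3 in all 4 groups: the mean squared difference per gene, in units of counting error, was 13.6 to 19.5 for pairs with replicate 1 and 3.29 to 4.69 for pairs of replicates 2 and 3. In SAS the same measure was 4.32 to 10.6 and 6.28 to 8.97. Within the SAS controls it was 4.32 for replicates 1 and 2, 9.41 for replicates 1 and 3, and 8.27 for replicates 2 and 3. For the AP-1 genes FaDu RT replicate 1 was the library farthest from its group, with FOS at 183 CPM (counts scaled to library size with trimmed-mean factors over all libraries) against 28.8 and 32.9 in replicates 2 and 3. SAS control replicate 3 was high for FOS, at 27.7 CPM against 11.2 and 11.9. Where a call rests on these libraries, values are given with and without them.

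The marker genes fit the label of both lines. The 7 squamous epithelial markers summed to 9405 to 11272 CPM in the FaDu libraries and 3696 to 4487 CPM in the SAS libraries, led by KRT17. The 5 fibroblast markers were led by COL1A1, a collagen gene, whose group means in FaDu were 41.6 CPM in control, 41.8 in RT, 53.7 in HT and 55.3 in HT+RT; in SAS they were 1.32 CPM in control and 1.41 in RT, and 23.9 in HT and 24.6 in HT+RT. The other 4 had group means of 0 to 0.235 CPM. The 3 endothelial markers summed to medians of 6.84 CPM in the FaDu libraries and 18.4 in the SAS libraries, led by CDH5, and the 4 immune markers 5.74 and 7.74 CPM, led by CD14, with PTPRC without a count in SAS.

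Promoter sequence is shown for FOS, FOSB, FOSL2 and JUN, the members altered upward after HT in SAS; this choice was made after their values were seen, and leaves out JUNB and JUND, which were altered after HT in FaDu. In the table of RefSeq promoters used here (GRCh38.p14) 6 of the 7 members were found, and the promoter of FOSL1 was not analysed here. The 250 bases before the start of transcription were searched on both strands for 6 motifs. The sequences lie at chr14:75278578-75278827 (FOS, + strand), chr19:45467746-45467995 (FOSB, + strand), chr2:28392608-28392857 (FOSL2, + strand) and chr1:58784048-58784297 (JUN, - strand), and capitals mark TGACGT, the core of the cAMP response element, in FOS, FOSB and FOSL2, and TGACATCA in JUN.
FOS: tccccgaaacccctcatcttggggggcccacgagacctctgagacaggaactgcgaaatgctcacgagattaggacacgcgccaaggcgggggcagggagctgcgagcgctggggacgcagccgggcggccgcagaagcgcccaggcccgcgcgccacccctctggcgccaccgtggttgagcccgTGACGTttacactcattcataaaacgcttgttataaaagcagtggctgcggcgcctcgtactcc
FOSB: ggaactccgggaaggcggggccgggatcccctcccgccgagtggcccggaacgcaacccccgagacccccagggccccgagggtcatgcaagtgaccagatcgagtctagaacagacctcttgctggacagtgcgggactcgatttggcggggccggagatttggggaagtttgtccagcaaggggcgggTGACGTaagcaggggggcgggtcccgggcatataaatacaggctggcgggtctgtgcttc
FOSL2: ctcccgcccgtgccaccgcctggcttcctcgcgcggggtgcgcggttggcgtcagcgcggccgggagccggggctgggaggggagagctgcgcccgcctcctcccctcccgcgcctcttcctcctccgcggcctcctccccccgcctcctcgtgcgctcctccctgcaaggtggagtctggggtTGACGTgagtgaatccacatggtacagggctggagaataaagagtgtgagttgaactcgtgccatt
JUN: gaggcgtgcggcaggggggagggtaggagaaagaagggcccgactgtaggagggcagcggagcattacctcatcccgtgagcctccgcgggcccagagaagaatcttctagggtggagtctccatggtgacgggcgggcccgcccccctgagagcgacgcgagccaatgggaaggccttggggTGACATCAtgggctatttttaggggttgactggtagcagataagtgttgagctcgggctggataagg
TGACGT lay 64 to 59 bases before the start in FOS, 60 to 55 in FOSB and 66 to 61 in FOSL2, and TGACATCA lay 67 to 60 bases before the start in JUN. TGACGT was found in FOS, FOSB, FOSL2 and JUND, 4 of the 6 members, and in 7.1% of 35116 promoters of the same length. The AP-1-like TGACNTCA was found in JUN and JUND and in 6.87% of all promoters; in JUND it reads TGACGTCA, 200 to 193 bases before the start, and so overlaps TGACGT, which JUND also holds at 87 to 82 on the other strand. Within these 250 bases none of the 6 members searched held the AP-1 site TGANTCA, present in 6.57% of promoters, or a CArG box, the binding motif of SRF, present in 1.16%. Sequence farther from the start was not searched. GAANNTTC, a unit of the heat shock element, was found in JUN and in 5.78% of promoters, and TATAA in FOS, FOSB, JUNB and JUND and in 18.9%. GC content was 64.8% in FOS, 65.6% in FOSB, 69.6% in FOSL2, 62% in JUN, 70.8% in JUNB and 74.8% in JUND, beside a median of 58% over all promoters. These are matches of letters within this window, and binding was not measured.

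Differences between groups were tested with edgeR on all genes that passed the filter. A gene is called altered when its p, adjusted over all genes tested, is under 0.05 and its log2 fold change is above 1 or below -1, and rose or fell is written only of genes under that adjusted p. The HT, RT and HT+RT groups of a line were each compared with the same 3 control libraries, so those fold changes are not independent of each other. The question of whether the lines differ in a response was tested as the difference between the FaDu and the SAS fold change, in 1 fit of 12 libraries.

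FOS encodes the founding member of its family. In FaDu it stood at 15.8, 16.7 and 18.8 CPM in control replicates 1, 2 and 3, and at 183, 28.8 and 32.9 CPM after RT. After HT the FaDu libraries held 1757, 1740 and 1564 CPM, and after HT+RT 1689, 1521 and 1572 CPM. Every heated FaDu library lay far above every unheated library, the heated groups overlapped, and the RT libraries lay above the controls replicate 1 farthest. In SAS the controls held 11.2, 11.9 and 27.7 CPM, RT 25.5, 25 and 41.3 CPM, HT 217, 229 and 185 CPM and HT+RT 214, 159 and 193 CPM. The heated SAS libraries lay above all unheated SAS libraries and below all heated FaDu libraries, and the SAS RT range overlapped that of the controls through control replicate 3. FOS rose by 6.64 log2 after HT in FaDu (95% interval 6.40 to 6.87, edgeR adjusted p 2.4e-09), 99.6-fold, and by 6.56 after HT+RT (6.33 to 6.79, adjusted p 1.4e-09). In SAS FOS rose by 3.65 log2 after HT (3.09 to 4.20, edgeR adjusted p 1e-06), 12.5-fold, and by 3.49 after HT+RT (2.91 to 4.07, adjusted p 2.3e-06). The FaDu response exceeded the SAS response by 3.02 log2 for HT (2.33 to 3.71, edgeR adjusted p 4.4e-05) and by 3.11 for HT+RT (2.41 to 3.80, adjusted p 2.4e-05). Without SAS control replicate 3 these differences were 2.43 and 2.51, and both were still altered. In order of mean level, SAS control (16.9 CPM) and FaDu control (17.1) overlapped, as did SAS RT (30.6) and FaDu RT (81.5), FaDu RT and SAS HT+RT (189), SAS HT+RT and SAS HT (210), and FaDu HT+RT (1594) and FaDu HT (1687); gaps lay above FaDu control and above SAS HT.

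**Figure D1:**
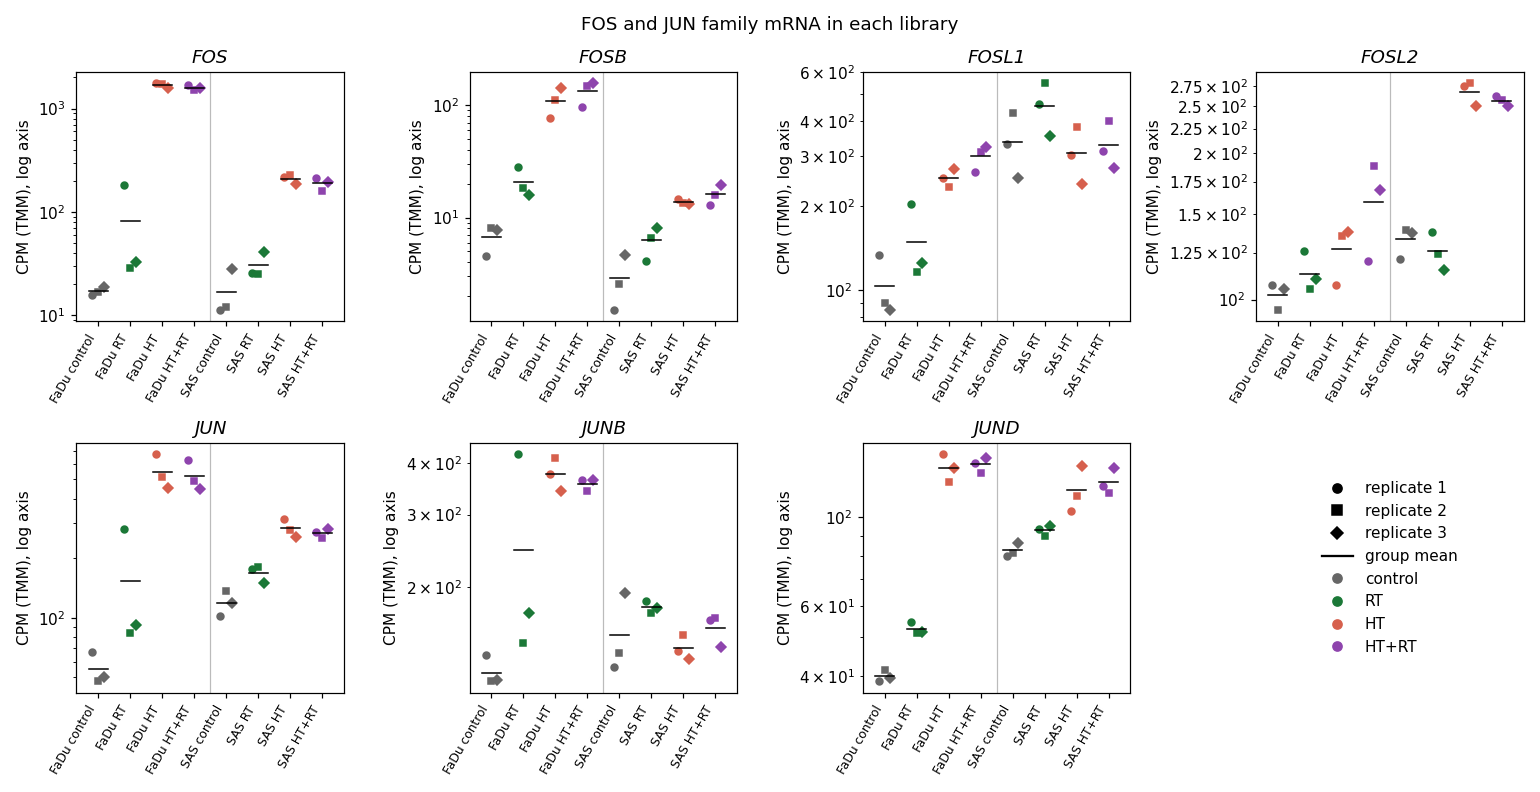
CPM of each member (vertical axis, log scale, drawn for each gene) in every library of the 8 conditions (horizontal axis); marker shapes are the 3 replicates and lines the group mean. FOS lies at 1564 to 1757 CPM in the FaDu HT libraries and at 15.8 to 18.8 CPM in the FaDu controls.

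FOSB is the closest relative of FOS and also has a shorter splice form, which counts per gene do not separate. FaDu controls held 4.52, 8.01 and 7.69 CPM of FOSB, and FaDu RT 28.1, 18.2 and 15.8 CPM. FaDu HT held 77.5, 111 and 142 CPM and FaDu HT+RT 96.1, 148 and 157 CPM. Replicate 1 was the lowest of its group in the FaDu control, HT and HT+RT groups and the highest after RT, and the heated and unheated FaDu libraries did not overlap. SAS controls held 1.5, 2.57 and 4.63 CPM of FOSB, RT 4.12, 6.63 and 8.12 CPM, HT 14.5, 13.5 and 13.2 CPM and HT+RT 13, 15.9 and 19.4 CPM. All heated SAS libraries lay above the unheated ones, while control and RT overlapped. FOSB rose by 4.04 log2 after HT in FaDu (3.42 to 4.66, edgeR adjusted p 4.2e-05) and by 4.33 after HT+RT (3.78 to 4.87, adjusted p 6.5e-06). In SAS the rise was 2.26 log2 after HT (1.66 to 2.85, edgeR adjusted p 9.6e-05) and 2.50 after HT+RT (1.85 to 3.14, adjusted p 8.1e-05). Its responses differed between the lines by 1.81 log2 for HT (0.88 to 2.74, edgeR adjusted p 0.023) and 1.86 for HT+RT (0.92 to 2.79, adjusted p 0.017), higher in FaDu. The HT difference was no longer altered without SAS control replicate 3 (1.26), SAS HT replicate 2 (1.75) or SAS HT replicate 3 (1.73), and the HT+RT difference without SAS control replicate 3 (1.30). From low to high the means ran SAS control (2.9 CPM), SAS RT (6.29), FaDu control (6.74), SAS HT (13.7), SAS HT+RT (16.1), FaDu RT (20.7), FaDu HT (110) and FaDu HT+RT (134), and neighbours overlapped except FaDu control with SAS HT and FaDu RT with FaDu HT. FOSB shares its locus with ERCC1 on the opposite strand, without overlap of exons, and the strand setting of the counting is not given; ERCC1 itself moved by 0.17 log2 after HT in FaDu (edgeR adjusted p 0.49) and by 0.12 in SAS (adjusted p 0.34).

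FOSL1 encodes FRA-1, a FOS protein without the transactivation domain of FOS. In FaDu controls it stood at 133, 89.7 and 84.7 CPM, after RT at 203, 116 and 125 CPM, after HT at 251, 233 and 271 CPM and after HT+RT at 264, 312 and 323 CPM. The heated FaDu libraries lay above all unheated ones, and the RT and control ranges overlapped through replicate 1. SAS controls held 333, 430 and 252 CPM of FOSL1, RT 462, 548 and 354 CPM, HT 303, 381 and 239 CPM and HT+RT 315, 402 and 272 CPM. All 4 SAS ranges overlapped, with replicate 2 the highest and replicate 3 the lowest in each. FOSL1 rose by 1.32 log2 after HT in FaDu (0.96 to 1.67, edgeR adjusted p 0.00085) and by 1.58 after HT+RT (1.21 to 1.94, adjusted p 0.00027). In SAS its log2 fold change was -0.13 after HT (-0.52 to 0.25, edgeR adjusted p 0.64) and -0.03 after HT+RT (-0.40 to 0.34, adjusted p 0.92). The lines differed in this response by 1.48 log2 for HT (0.89 to 2.08, edgeR adjusted p 0.0049) and 1.64 for HT+RT (1.07 to 2.22, adjusted p 0.0013). The highest means were those of SAS RT (455 CPM) and SAS control (338 CPM) and the lowest those of FaDu control (103 CPM) and FaDu RT (148 CPM), and the only gap between neighbours lay between FaDu RT and FaDu HT (252 CPM).

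FOSL2 encodes FRA-2, the other FOS protein that lacks that domain. FaDu controls held 107, 95.1 and 105 CPM, RT 126, 105 and 110 CPM, HT 107, 135 and 138 CPM and HT+RT 120, 188 and 168 CPM. In the heated FaDu groups replicate 1 was the lowest, and FaDu HT and FaDu RT overlapped. In SAS, FOSL2 stood at 121, 139 and 137 CPM in the controls, 138, 124 and 115 CPM after RT, 275, 279 and 250 CPM after HT and 262, 258 and 251 CPM after HT+RT. Every heated SAS library was above every other library of either line. FOSL2 rose by 1.02 log2 after HT in SAS (0.87 to 1.17, edgeR adjusted p 7.7e-07), just inside the fold threshold, and by 0.96 after HT+RT (0.82 to 1.10, adjusted p 6.7e-07), just outside it. Without SAS HT replicate 2 the HT value was 0.99 and without SAS control replicate 1 it was 0.95, both under the threshold. In FaDu the log2 fold change was 0.33 after HT (0.09 to 0.57, edgeR adjusted p 0.063) and 0.66 after HT+RT (0.34 to 0.99, adjusted p 0.011). Without FaDu HT replicate 1 the HT value was 0.44 (edgeR adjusted p 0.0021), with DESeq2 0.34 (adjusted p 0.031) and with the replicate block 0.32 (edgeR adjusted p 0.0038), and without FaDu control replicate 2 the HT+RT value was 0.61 (edgeR adjusted p 0.058). The difference of the lines was -0.66 log2 for HT (-0.94 to -0.38, edgeR adjusted p 0.0073), under the fold threshold and opposite in sign to that of the other 6 members, and -0.26 for HT+RT (adjusted p 0.44). By mean level FaDu control (102 CPM), FaDu RT (113), SAS RT (126), FaDu HT (127), SAS control (133) and FaDu HT+RT (159) each overlapped the next, and a gap separated them from SAS HT+RT (257) and SAS HT (268), which overlapped.

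JUN encodes c-Jun, the substrate of the JNK kinases and a partner of every FOS protein. FaDu controls held 67.4, 47.6 and 49.9 CPM and FaDu RT 282, 83.9 and 92 CPM. FaDu HT held 669, 517 and 454 CPM and FaDu HT+RT 630, 490 and 446 CPM. Replicate 1 was the highest library in all 4 FaDu groups, and heated libraries lay above unheated ones. In SAS the controls held 102, 136 and 119 CPM of JUN, RT 176, 181 and 149 CPM, HT 314, 279 and 255 CPM and HT+RT 270, 253 and 281 CPM. SAS RT lay above the controls and below both heated groups, which overlapped. JUN rose by 3.33 log2 after HT in FaDu (2.94 to 3.72, edgeR adjusted p 7.6e-06), 10.1-fold, and by 3.28 after HT+RT (2.90 to 3.65, adjusted p 3.7e-06). In SAS it rose by 1.25 log2 after HT (1.03 to 1.47, edgeR adjusted p 2.9e-06), 2.38-fold, and by 1.18 after HT+RT (0.98 to 1.38, adjusted p 2.8e-06). The lines differed by 2.11 log2 for HT (1.67 to 2.55, edgeR adjusted p 2.1e-05) and 2.13 for HT+RT (1.71 to 2.55, adjusted p 6.8e-06). In the order of means, FaDu control (55 CPM) was separate from SAS control (119 CPM), SAS RT (169 CPM) from SAS HT+RT (268 CPM), and SAS HT (283 CPM) from FaDu HT+RT (522 CPM), while FaDu RT (153 CPM) overlapped SAS control and SAS RT, SAS HT+RT overlapped SAS HT, and FaDu HT+RT overlapped FaDu HT (547 CPM).

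JUNB encodes a JUN protein with weaker activation than c-Jun at many promoters. FaDu controls held 137, 118 and 119 CPM, RT 420, 146 and 173 CPM, HT 376, 411 and 343 CPM and HT+RT 364, 342 and 364 CPM. RT replicate 1 was the highest JUNB library of all 24, and the other RT libraries lay between the controls and the heated groups. SAS controls held 128, 138 and 193 CPM of JUNB, RT 185, 173 and 178 CPM, HT 140, 153 and 134 CPM and HT+RT 166, 168 and 143 CPM. The SAS control range, wide through replicate 3, overlapped that of each treated SAS group. JUNB rose by 1.62 log2 after HT in FaDu (1.42 to 1.81, edgeR adjusted p 9.9e-06) and by 1.55 after HT+RT (1.38 to 1.71, adjusted p 2.1e-06). In SAS its log2 fold change was -0.10 after HT (-0.38 to 0.18, edgeR adjusted p 0.63) and 0.06 after HT+RT (-0.22 to 0.35, adjusted p 0.78), or 0.27 (adjusted p 0.023) without SAS control replicate 3. The difference of the lines was 1.74 log2 for HT (1.37 to 2.12, edgeR adjusted p 2.9e-05) and 1.52 for HT+RT (1.16 to 1.88, adjusted p 4.4e-05). The means ran from 124 CPM in FaDu control through SAS HT (142), SAS control (153), SAS HT+RT (159), SAS RT (179), FaDu RT (246) and FaDu HT+RT (357) to 377 in FaDu HT, and neighbours overlapped except SAS HT+RT and SAS RT. An exon of HOOK2 on the opposite strand overlaps JUNB, and since the strand setting is not given, a share of the reads of either gene is uncertain; HOOK2 moved by 0.24 log2 after HT in FaDu (edgeR adjusted p 0.042) and by 0.12 in SAS (adjusted p 0.48).

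JUND encodes the JUN protein that is present in most resting cells. FaDu controls held 38.7, 41.3 and 39.5 CPM, RT 54.7, 51.3 and 51.5 CPM, HT 144, 123 and 133 CPM and HT+RT 137, 129 and 141 CPM. Replicates were close, and control, RT and the heated groups of FaDu did not overlap. In SAS the controls held 80.2, 81.5 and 86.2 CPM of JUND, RT 93.7, 90 and 95.2 CPM, HT 104, 113 and 135 CPM and HT+RT 120, 115 and 133 CPM. The same order held in SAS, in narrower steps and from a higher control level. JUND rose by 1.76 log2 after HT in FaDu (1.59 to 1.92, edgeR adjusted p 2e-06) and by 1.79 after HT+RT (1.65 to 1.93, adjusted p 2.6e-07). In SAS it rose by 0.51 log2 after HT (0.31 to 0.71, edgeR adjusted p 0.0015) and by 0.58 after HT+RT (0.43 to 0.73, adjusted p 9.8e-05), both under the fold threshold. The lines differed by 1.28 log2 for HT (SE 0.13, edgeR adjusted p 2.9e-05) and 1.25 for HT+RT (1.04 to 1.45, adjusted p 1e-06). By mean level FaDu control (39.9 CPM), FaDu RT (52.5), SAS control (82.6) and SAS RT (93) were each separate from the next, while SAS HT (117), SAS HT+RT (123), FaDu HT (133) and FaDu HT+RT (136) overlapped in turn.

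Across the family, HT in FaDu altered 6 of the 7 members upward, all but FOSL2, where 4.29% of the genes tested were altered upward. The median log2 fold change of the members was 1.76, beside 0.01 over all genes. HT+RT in FaDu altered the same 6 members, FOS, FOSB, FOSL1, JUN, JUNB and JUND, with 5.08% of genes altered upward, and the medians were 1.79 and 0.01. In SAS, HT altered 4 members upward (FOS, FOSB, FOSL2 and JUN), with 5.31% of genes altered upward and medians of 1.02 and 0.00. HT+RT in SAS altered 3 (FOS, FOSB and JUN), with 5.76% of genes altered upward and medians of 0.96 and 0.00. No member was altered downward in these 4 comparisons.

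The difference between the lines was altered, toward FaDu, for the same 6 members after HT and after HT+RT, FOSL2 being the exception in both. Over all genes, 1.25% were altered in that direction for HT and 1.43% for HT+RT. Members had a median difference of 1.74 log2 for HT and 1.64 for HT+RT, beside 0.03 over all genes in each. FOSB is the member of those 6 whose call rests on single libraries, as given with its values: without SAS control replicate 3 the differences were 1.26 and 1.30.

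**Figure D2:**
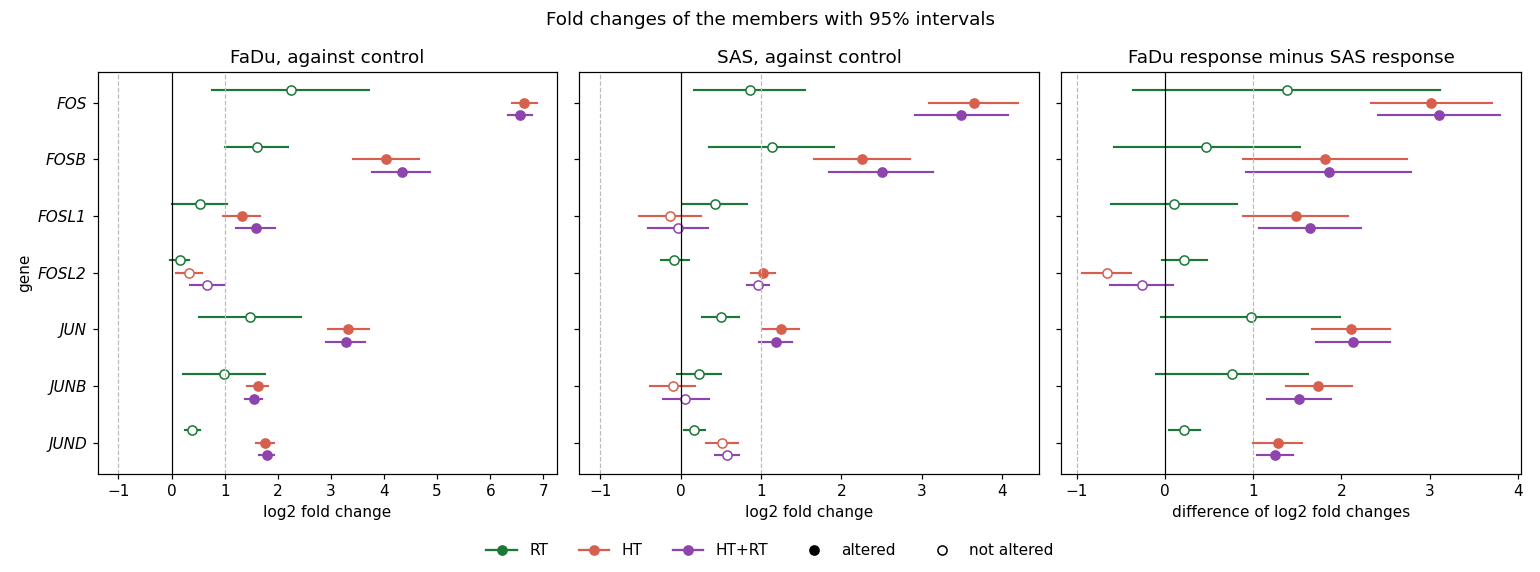
Log2 fold change (horizontal axis) of each member (vertical axis) in each treatment relative to the controls of its line, and the difference of the lines; bars are 95% intervals from edgeR, filled points are altered, and dashed lines mark the fold threshold. FOS reaches 6.64 in FaDu and 3.65 in SAS after HT, and FOSL2 is the member whose HT value is higher in SAS, 1.02 against 0.33.

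RT alone altered 0 of 7 members by edgeR in FaDu, where 0.00643% of genes were altered; 6 members and 791 of 15552 genes had an unadjusted p under 0.05, and DESeq2 altered 1 member, FOSB, and 11 genes. The FaDu fold changes were 2.24 log2 for FOS (0.76 to 3.72, edgeR adjusted p 0.6), 1.60 for FOSB (1.01 to 2.20, adjusted p 0.16), 1.47 for JUN (0.51 to 2.43, adjusted p 0.59) and 0.98 for JUNB (0.21 to 1.75, adjusted p 0.85). JUND stood at 0.39, FOSL1 at 0.53 and FOSL2 at 0.15. All 7 were positive, and the 3 RT libraries lay above the 3 controls for FOS, FOSB, JUN, JUNB and JUND, as for 5.75% of all genes tested. Without FaDu RT replicate 1 the values were 0.84 for FOS, 1.32 for FOSB, 0.68 for JUN, 0.35 for JUNB and 0.23 for FOSL1, and 0 members were altered. In that fit FOS was under the adjusted p threshold (edgeR adjusted p 0.015) and under the fold threshold. A block for the replicate number gave 3 altered members, beside 0.18% of genes: FOS at 1.78 (edgeR adjusted p 2.4e-05), FOSB at 1.56 (adjusted p 5e-08) and JUN at 1.27 (adjusted p 1.3e-08). With replicates 2 and 3 alone, a choice made after the data were seen, FOSB was altered at 1.10 (edgeR adjusted p 9.3e-08), and FOS and JUN stood under the fold threshold at 0.79 (adjusted p 5.3e-07) and 0.84 (adjusted p 6e-11). Also under the fold threshold there were FOSL1 at 0.46 (edgeR adjusted p 5.4e-06), JUNB at 0.43 (adjusted p 3.4e-05) and JUND at 0.34 (adjusted p 0.0083). FOSL1 (0.51, edgeR adjusted p 8.2e-08), JUNB (0.83, adjusted p 2.4e-05) and JUND (0.39, adjusted p 0.00018) were under the adjusted p threshold with the block too, beside 2.01% of all genes, and under the fold threshold. The members' median was 0.98 log2, beside -0.00 over all genes, and 0.36 without FaDu RT replicate 1.

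In SAS, RT also altered 0 of 7 members by edgeR, with 0.0272% of genes altered; 5 members and 834 of 14680 genes had an unadjusted p under 0.05, and DESeq2 altered 0 members and 10 genes. The fold changes were 0.86 log2 for FOS (0.17 to 1.55, edgeR adjusted p 0.73), 1.13 for FOSB (0.35 to 1.91, adjusted p 0.59) and 0.50 for JUN (0.27 to 0.73, adjusted p 0.19). FOSL1 stood at 0.43, JUNB at 0.23, JUND at 0.17 and FOSL2 at -0.08. JUN and JUND were the members whose RT libraries all lay above the controls, as for 5.45% of all genes tested. Without SAS control replicate 3 FOS was altered, at 1.41 (edgeR adjusted p 0.028), FOSB stood at 1.64 (adjusted p 0.13), JUNB at 0.43 (adjusted p 0.028), under the fold threshold, and FOSL1 at 0.26 (adjusted p 0.76). With the replicate block 1 member was altered, FOSB at 1.16 (edgeR adjusted p 0.00063), with 0.17% of genes altered, and FOS stood at 0.91 (adjusted p 4.7e-06). The block also put JUN (0.51, edgeR adjusted p 1.9e-05) and FOSL1 (0.44, adjusted p 4.5e-07) under the adjusted p threshold, beside 1.96% of all genes. The median of the members was 0.43 log2, beside -0.00 over all genes, and 0.27 without SAS RT replicate 2.

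The responses of the lines to RT, at 7 and 10 Gy, differed by a median of 0.47 log2 over the members and 0.01 over all genes. The members' median was 0.15 without FaDu RT replicate 1, 0.28 without SAS control replicate 3, 0.30 without SAS RT replicate 1 and 0.79 without SAS control replicate 1. edgeR altered 0 of 7 members and 0% of genes for this difference; 1 member, JUND, and 460 of 16811 genes had an unadjusted p under 0.05, and DESeq2 altered 0 members and 1 gene. FOS had the widest interval, 1.38 log2 (-0.36 to 3.12), and stood at -0.01 without FaDu RT replicate 1, where JUN went from 0.97 to 0.18 and JUNB from 0.76 to 0.13. The replicate block gave 0.87 for FOS (edgeR adjusted p 0.86), and without the filter on low counts FOS was altered, at 1.38 (adjusted p 4.3e-18), beside 0.0171% of genes. With the filter the same value of 1.38 had an interval from -0.36 to 3.12. The p without the filter thus does not reflect the spread among these libraries.

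Whether irradiation changed the members in heated spheroids was tested directly between HT+RT and HT, which share no control. In FaDu 0 of 7 members and 0% of genes were altered by edgeR; 1 member, FOSL1, and 361 of 16145 genes had an unadjusted p under 0.05, and DESeq2 altered 0 members and 2 genes. In SAS 0 of 7 members and 0% of genes were altered by edgeR; 0 members and 673 of 15341 genes had an unadjusted p under 0.05, and DESeq2 altered 0 members and 5 genes. Every member's groups overlapped in both lines, as did those of most genes. All HT+RT libraries lay above all HT libraries for 3.64% of genes in FaDu and below for 3.77%. In SAS these shares were 5.79 and 3.9%. Within each of the 3 replicate numbers HT+RT was higher than HT for FOSB, FOSL1 and FOSL2 in FaDu and for FOSL1 and JUNB in SAS, and lower for JUN in FaDu. The share of all genes with the same direction in all 3 numbers was not computed, so this pattern says little about the members. In FaDu the numbers set replicate 1 apart and do not show 3 pairs. In FaDu the replicate block put FOSB, FOSL1 and FOSL2 under the adjusted p threshold and under the fold threshold, at 0.28 (edgeR adjusted p 0.0044), 0.25 (adjusted p 0.0098) and 0.32 (adjusted p 0.00096), beside 0.954% of all genes under that adjusted p and 3 genes altered; FOSL2 was also under that adjusted p with FaDu replicates 2 and 3 alone, at 0.38 (adjusted p 0.02). In SAS the block put 0 members under it, the lowest adjusted p being 0.13, for JUNB, and altered 7 genes. FOS had a log2 fold change of -0.08 in FaDu (-0.25 to 0.08) and -0.16 in SAS (-0.38 to 0.06), and FOSB 0.28 (-0.27 to 0.82) and 0.23 (-0.07 to 0.54). The intervals of all members together ran from -0.44, for JUN in FaDu, to 0.82, for FOSB in FaDu.

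The untreated lines differed in 4 of 7 members, beside 38.1% of all genes altered in either direction, so the count says little about the members. Against SAS control, FaDu control was lower for FOSL1 by a log2 fold change of -1.70 (-2.14 to -1.26, edgeR adjusted p 1.6e-05), for JUN by -1.09 (-1.38 to -0.80, adjusted p 2.2e-05) and for JUND by -1.02 (-1.17 to -0.88, adjusted p 1.6e-07). All 3 FaDu libraries lay below all 3 SAS libraries for FOSL1, JUN, JUND and also FOSL2, as for 38.8% of all genes. FOSB was higher in FaDu by 1.26 (0.48 to 2.04, edgeR adjusted p 0.0071), although the libraries overlapped. The JUND call ended without FaDu control replicate 1 (-0.99), the JUN call without FaDu control replicate 2 (-0.99) and the FOSB call without SAS control replicate 1 (0.93). FOS stood at 0.05 (-0.58 to 0.69), JUNB at -0.27 and FOSL2 at -0.35, and FOSL2 was under the adjusted p threshold (edgeR adjusted p 0.0013). Without SAS control replicate 3 FOS stood at 0.59 (edgeR adjusted p 0.0018, against 0.88 with all libraries) and JUNB at -0.08 (adjusted p 0.41, against 0.092); JUNB was under the adjusted p threshold without FaDu control replicate 1, at -0.33 (adjusted p 0.034), or without SAS control replicate 1, at -0.39 (adjusted p 0.027). The members' median was -0.35 log2, beside 0.03 over all genes.

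To compare levels between members, counts were divided by exon length in GENCODE v29, which gives CPM per kb. The 7 members summed to 206, 168 and 167 CPM per kb in the FaDu controls, 527, 220 and 243 after RT, 1177, 1138 and 1059 after heat alone, and 1147, 1084 and 1110 after HT+RT. In SAS the sums were 339, 410 and 348 in the controls, 474, 511 and 409 after RT, 490, 538 and 439 after heat alone, and 503, 527 and 472 after HT+RT. The heated FaDu spheroids thus held the highest sums and the FaDu controls the lowest, while the treated SAS groups overlapped each other. JUNB led in FaDu control, at 38% ± 1.34 (SD, n = 3) of the summed level, ahead of FOSL1 at 29.8% ± 3.9. FOS held 2.97% ± 0.558 of the sum in FaDu control (2.37, 3.08 and 3.47%) and led after HT at 46.3% ± 0.837 (46.1, 47.2 and 45.6%) and after HT+RT at 44.2% ± 1.13. FaDu RT had FOS at 10.7% in replicate 1 and at 4.05 and 4.18% in replicates 2 and 3, with JUNB leading at 39.8% ± 3.74. FOSL1 led in all 4 SAS groups, at 48.7% ± 9.14 in the controls, 51.4% ± 5.46 after RT, 33% ± 4.37 after HT and 34.7% ± 5.13 after HT+RT. FOS in SAS went from 1.46% ± 0.866 in the controls (1.02, 0.899 and 2.45%, highest in replicate 3) to 13.3% ± 0.341 after HT and 11.7% ± 2.05 after HT+RT, and stood at 2.09% ± 0.887 after RT. Without division by length JUN exceeded FOSL1 in SAS HT replicate 1 (22.9 against 22.1%), SAS HT replicate 3 (21.1 against 19.7%) and SAS HT+RT replicate 3 (21.7 against 21%). FOSB was the least abundant member per kb in 6 groups, from 0.144% ± 0.0845 in SAS control to 1.21% ± 0.268 in FaDu RT; in FaDu HT and HT+RT it held 1.79% ± 0.617 and 2.17% ± 0.575, beside 1.58% ± 0.282 and 2% ± 0.49 for FOSL2, within their spread. The 4 FOS family members together made up 39.9 to 44.2% of the sum in FaDu controls, 35.5 to 40.2% after RT, 59.8 to 63.4% after HT and 60.6 to 63.8% after HT+RT, and 46.6 to 61.5%, 53.3 to 61.9%, 50.3 to 58.4% and 51.3 to 57.2% in the same SAS groups. These shares carry no test, since the shares of 7 genes depend on each other.

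**Figure D3:**
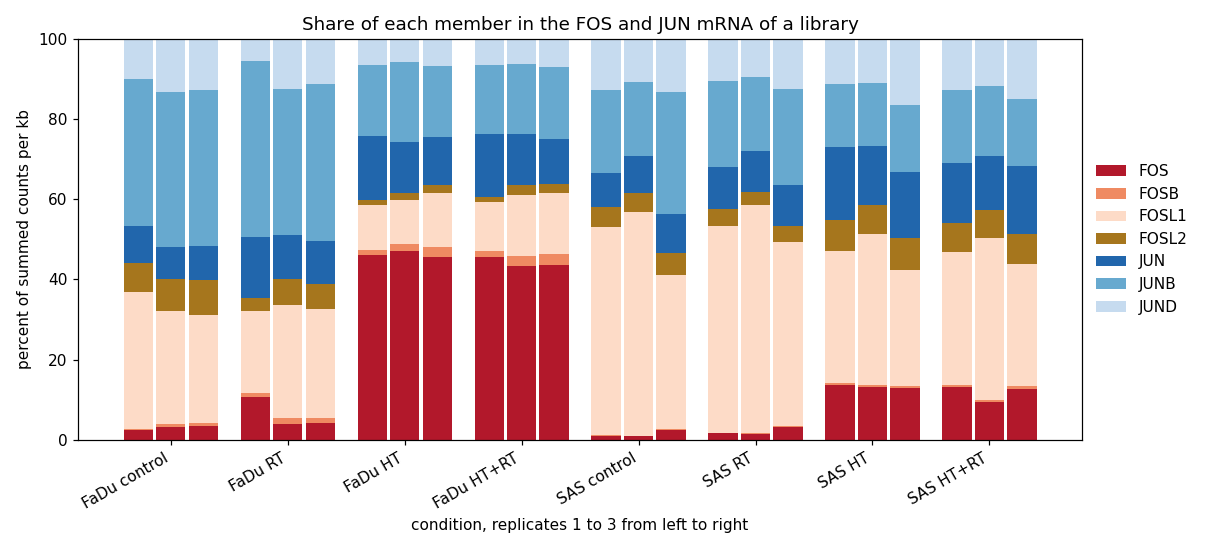
Stacked bars of the 7 members as percent of their summed CPM per kb (vertical axis, from 0), 1 bar for each library, grouped by condition (horizontal axis). FOS fills a mean of 46.3% in FaDu HT and 13.3% in SAS HT, and FOSL1 48.7% in SAS control.

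Likeness of pattern was measured as Pearson's r over the 24 libraries, on log2(CPM + 1) minus the mean of the controls of the same line, against 12884 genes. The libraries share treatments and controls, so r is a description. FOS was most like PPP1R15A (0.987), ZFP36 (0.979) and DUSP2 (0.977), and FOSB most like ZFP36 (0.976), ATF3 (0.976) and CSRNP1 (0.972). JUN was most like DUSP1 (0.972), ZFP36 (0.967) and GADD45B (0.955), JUNB most like EGR1 (0.974), IER2 (0.958) and CYR61 (0.933), and JUND most like EGR2 (0.980), OVOL1-AS1 (0.976) and GADD45B (0.972). OVOL1-AS1 averaged 8.99 and 9.86 CPM in FaDu HT and HT+RT and 0.138 to 0.663 CPM in the other 6 groups; with the filter set on the mean of log2 CPM, over 12290 genes, it was left out, HIST3H2A (0.971) came in, and the other genes named for the members stayed. FOSL1 had lower best values, with ITPRID2 (0.932), THBS1 (0.929) and CCDC85B (0.927), of which CCDC85B lies within 1 kb of FOSL1 on the opposite strand. FOSL2 was most like PPP1R3B (0.955), NUFIP2 (0.952) and LRIF1 (0.950). Among the members, r was 0.969 for FOS with FOSB, 0.954 for FOS with JUN and 0.954 for JUN with JUND, and FOSL2 was the member least like the others, with 0.001 for FOSL1, 0.021 for JUNB, 0.332 for JUND, 0.367 for JUN, 0.525 for FOSB and 0.560 for FOS.

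Among 12 bZIP partners and relatives of FOS and JUN, 4 of the 11 tested were altered upward after HT in FaDu (ATF3, CREB5, MAFF and MAFK; median 0.19 log2) and the same 4 after HT+RT (median 0.22). In SAS 3 of 11 were altered upward after HT (ATF3, MAF and MAFF; median 0.34) and the same 3 after HT+RT (median 0.37), and the median over all genes was 0.01 in FaDu and 0.00 in SAS. Altered upward among all genes tested were 4.29% after HT and 5.08% after HT+RT in FaDu, and 5.31% and 5.76% in SAS. None was altered downward in those comparisons. ATF3, a stress-induced partner of JUN proteins, held 3.47, 3.16 and 2.67 CPM in FaDu controls and 51, 73.3 and 94.7 CPM after HT, a rise of 4.59 log2 (edgeR adjusted p 1.1e-05), and in SAS 6.04, 7.24 and 9.03 CPM and 37.7, 34.1 and 31.5 CPM, a rise of 2.22 (adjusted p 4e-07). Groups did not overlap in either line, and the responses differed by 2.40 log2 (edgeR adjusted p 0.00021). MAFF, a small MAF protein, rose by 2.94 log2 after HT in FaDu (edgeR adjusted p 0.00013) and 1.61 in SAS (adjusted p 5.9e-06); the difference was 1.37 (adjusted p 0.014), and under the fold threshold, at 0.98, without FaDu HT replicate 3. MAFK, also a small MAF protein, held 13.5, 17.2 and 17.7 CPM in FaDu controls and 41.2, 47.4 and 59.2 CPM after HT, a rise of 1.63 log2 (edgeR adjusted p 0.00034), and in SAS 93.7, 113 and 83.4 CPM and 133, 128 and 114 CPM, a value of 0.38 (adjusted p 0.014) under the fold threshold; the difference was 1.28 (adjusted p 0.0012). MAF, a large MAF protein, rose in SAS by 2.85 log2 after HT (edgeR adjusted p 0.00073), or 3.87 without SAS control replicate 3, and stood at 0.16 in FaDu (adjusted p 0.74). The difference was -2.67 (edgeR adjusted p 0.011), or -3.73 without that library. Both rest on few reads, since the 3 SAS controls together held 30 reads of MAF. CREB5, a relative of ATF2, rose by 2.66 log2 after HT in FaDu (edgeR adjusted p 0.0037), or 3.29 without FaDu control replicate 2, from 5, 15 and 7 control reads. In SAS the CREB5 value after HT+RT was 1.24 (edgeR adjusted p 0.056), and 1.20 (adjusted p 0.013) with the replicate block, which also altered its HT+RT difference between the lines, 2.28 (adjusted p 0.0018) against 2.20 (adjusted p 0.05). Without SAS control replicate 2 CREB5 was altered in SAS after HT (1.54) and after HT+RT (1.72).

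None of the 20 kinases and factors upstream of FOS and JUN, which include the JNK, p38 and ERK kinases, SRF, the ELK factors and CREB1, was altered after HT or HT+RT in either line, by edgeR or by DESeq2; at an unadjusted p under 0.05 there were 6 and 5 in FaDu and 8 and 9 in SAS, beside 30.8 and 32% of all genes in FaDu and 35.5 and 36.1% in SAS. Altered in either direction were 4.97 and 5.72% of all genes in FaDu and 6.03 and 6.36% in SAS. Their median log2 fold changes were -0.07 and -0.06 in FaDu (20 tested) and -0.08 and -0.11 in SAS (19 tested). These are mRNA levels, and the activity of these proteins was not measured in these libraries. Of 8 proteins that bind AU-rich elements, sequences found in short-lived mRNAs such as that of FOS, 2 were altered upward in FaDu by both heat treatments (ZFP36 and ZFP36L1; medians of the list 0.08 and 0.07) and 1 in SAS (ZFP36; medians 0.01 and -0.00). Of all genes tested, 4.29 and 5.08% were altered upward by HT and HT+RT in FaDu, and 5.31 and 5.76% in SAS. ZFP36, which promotes decay of such mRNAs, held 35.5, 36.6 and 33.4 CPM in FaDu controls and 225, 304 and 275 CPM after HT, a rise of 2.95 log2 (edgeR adjusted p 1.4e-06), and in SAS 15.5, 15.6 and 29.7 CPM and 48.2, 52.2 and 45.5 CPM, a rise of 1.27 (adjusted p 0.00071). Control replicate 3 was the high SAS library for ZFP36, as it was for FOS. The response of ZFP36 was larger in FaDu by 1.71 log2 (edgeR adjusted p 0.001). ZFP36L1, its relative, rose by 1.30 log2 after HT in FaDu (edgeR adjusted p 9.8e-05) and stood at 0.03 in SAS (adjusted p 0.88), with a difference of 1.29 (adjusted p 0.00056); for HT+RT the difference was 1.16, and 0.99 without SAS control replicate 2.

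Of 20 known AP-1 target genes, 18 were tested in FaDu and 15 in SAS. After HT 3 were altered upward in FaDu (CXCL8, IL6 and HBEGF; median 0.15 log2), beside 4.29% of all genes tested, and 3 in SAS (CXCL8, IL6 and CCL2; median 0.24), beside 5.31%. After HT+RT PLAUR joined them in FaDu (median 0.16), beside 5.08% of all genes, and the same 3 were altered in SAS (median 0.12), beside 5.76%. IL6, an inflammatory cytokine, held 1.58, 1.02 and 1.03 CPM in FaDu controls and 24.9, 25.7 and 33.8 CPM after HT, a rise of 4.57 log2 (edgeR adjusted p 3.3e-06), and in SAS 3.1, 4.39 and 2.11 CPM and 18.2, 17 and 12 CPM, a rise of 2.30 (adjusted p 2.3e-05). The heated libraries lay above the controls in each line, and the IL6 responses differed by 2.30 log2 (edgeR adjusted p 0.0013). CXCL8, a chemokine, rose by 2.80 log2 in FaDu (edgeR adjusted p 1.9e-05) and 1.95 in SAS (adjusted p 3.8e-05), and the difference of 0.88 was not altered (adjusted p 0.12), although it was with FaDu replicates 2 and 3 alone, at 1.09. Without FaDu HT replicate 1 that CXCL8 difference was altered as well, at 1.02. HBEGF, a ligand of the EGF receptor, rose by 1.68 log2 after HT in FaDu (edgeR adjusted p 3.9e-05) and stood at 0.47 in SAS (adjusted p 0.082). With 1 library left out the SAS value of HBEGF ran from 0.28 to 0.77. Its difference of 1.24 between the lines fell under the fold threshold without SAS control replicate 2, at 0.94. CCL2, a chemokine, had no read in any FaDu library and rose by 2.48 log2 in SAS (edgeR adjusted p 0.00041), from 10, 9 and 5 reads to 58, 45 and 35. PLAUR, the urokinase receptor, was altered in FaDu after HT+RT at 1.17 (edgeR adjusted p 0.0074), and not without FaDu control replicate 3, at 0.98; after HT it stood at 0.91 (adjusted p 0.049), and was altered without FaDu control replicate 1 (1.25) or FaDu HT replicate 2 (1.08).

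RT alone altered 0 genes of these 4 lists in either line by edgeR; at an unadjusted p under 0.05 there were 2 bZIP genes, 0 upstream genes, 1 AU-rich binder and 3 targets in FaDu and 0, 2, 3 and 2 in SAS, beside 5.09 and 5.68% of all genes, and DESeq2 altered 1, ATF3 in FaDu. Medians after RT in FaDu and SAS were 0.06 and 0.02 for the bZIP genes, 0.01 and 0.01 for the upstream genes, -0.01 and 0.02 for the AU-rich binders and 0.05 and 0.08 for the targets. In FaDu RT, ATF3 stood at 1.19 log2 (edgeR adjusted p 0.14) and ZFP36 at 1.10 (adjusted p 0.35), and with the replicate block both were altered, at 1.18 (adjusted p 7.4e-06) and 1.03 (adjusted p 6e-08). ATF3 was altered there with FaDu replicates 2 and 3 alone too, at 1.11 (edgeR adjusted p 0.00032), and ZFP36 was not, at 0.70, its value without FaDu RT replicate 1 as well; the FaDu RT libraries held 112, 52.2 and 61.9 CPM of ZFP36. MAFF and CXCL8 were under the adjusted p threshold after RT in FaDu, at 0.89 (edgeR adjusted p 0.0066) and 0.71 (adjusted p 0.005), and under the fold threshold. For the difference between the lines, 1.25% of all genes were altered toward FaDu and 1.49% toward SAS after HT, and 1.43 and 1.97% after HT+RT; at an unadjusted p under 0.05 there were 17.2 and 19.2% of all genes. After HT, 3 bZIP genes were altered toward FaDu and 1 toward SAS (median 0.38), 0 upstream genes were altered by edgeR or DESeq2 (4 at an unadjusted p under 0.05; median -0.00), 2 AU-rich binders were altered toward FaDu (median 0.10) and 2 targets, IL6 and HBEGF, were altered toward FaDu (median 0.13). For HT+RT the counts of altered genes were the same, with 3 upstream genes at an unadjusted p under 0.05, and the medians were 0.30, 0.09, 0.11 and 0.17, beside 0.03 over all genes. DESeq2 and the replicate block each altered 3 targets for HT and 3 for HT+RT, adding MMP10; without SAS control replicate 2 IL6 was the 1 left in both, and without FaDu control replicate 1 there were 4 for HT, with VEGFA and TGM1. For HT+RT DESeq2 and the block each altered 5 bZIP genes, adding CREB5. The target medians did not move without CCL2 and GJA1, which lacked counts in a whole group.

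**Figure D4:**
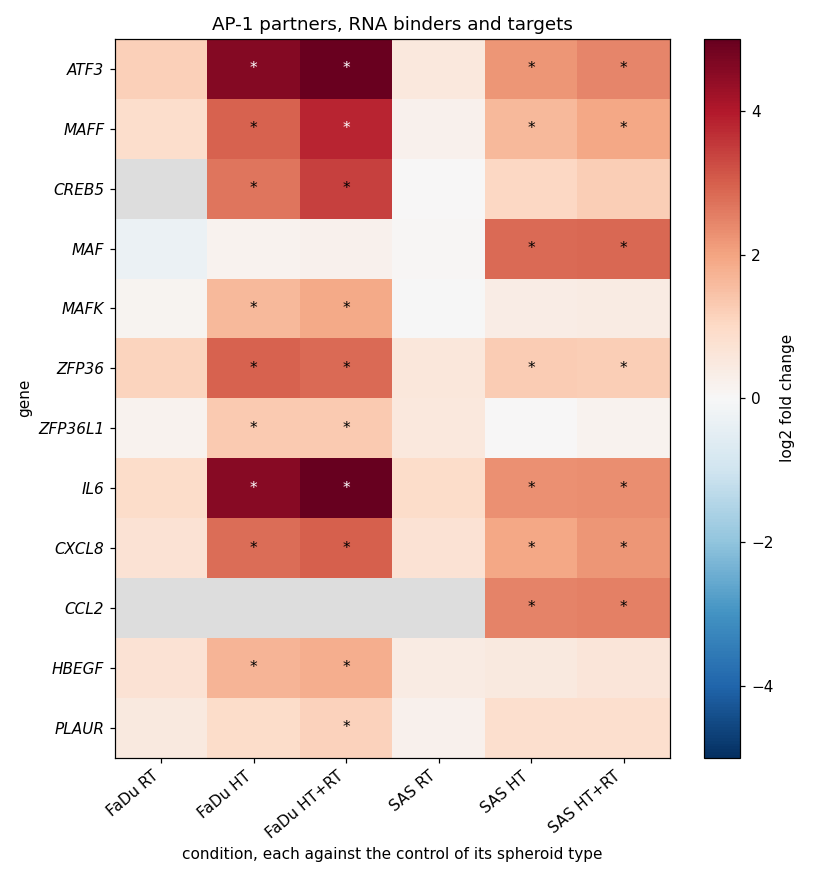
Log2 fold changes (color, red for positive values) of the named bZIP partners, AU-rich binders and targets (vertical axis) in each treated condition against the control of its line (horizontal axis); asterisks mark altered genes and gray cells genes that were not tested. ATF3 and IL6 have the darkest cells, 4.95 and 4.98 in FaDu HT+RT.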

How the data were processed

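The authors deposited raw read counts per gene for the 24 libraries in 7 tables that repeat 18 columns without a difference, and 0 columns were unmapped. The labels name bcl2fastq and DESeq2 and list mm9, a mouse build, while the gene identifiers are human; aligner, counting tool and strand setting are not given in the sources used here. The authors' normalized counts were not used. The members and lists were chosen with earlier results of these data known.

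Raw counts were analysed in R 4.3.3 with edgeR 4.0.16 and limma 3.58.1: filterByExpr (minimum count 10), trimmed-mean normalization, a quasi-likelihood fit of the groups compared (6 libraries, or 12 for a difference between lines) and Benjamini-Hochberg adjustment over all genes tested. Altered means an adjusted p under 0.05 and a log2 fold change beyond 1 in size. Gene names and exon lengths came from GENCODE 29, in which 56898 of 57500 identifiers were found; the other 602 held 0.0217% of counts. CPM used the same normalization over all libraries.

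Named genes are all members; from each list up to 5 genes altered after HT or HT+RT in either line, in order of their largest change; and for each member the 3 genes of highest Pearson r, among genes whose mean CPM had a log2 of 1 or more. MAFK, GJA1, MMP10, VEGFA, TGM1 and HIST3H2A were named after their values were seen. Also after that, 2 listed genes were left out for reasons apart from their values and are not reported here; the counts, medians and sums of the lists and markers, and the choice of named genes, are over the genes left.

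The replicate number in the library names was checked as a pairing: over genes, the deviations of libraries with the same number correlated above 0.1 in every pair of groups in FaDu RT (0.18 to 0.513), FaDu HT, FaDu HT+RT, FaDu HT+RT against HT, SAS RT (0.151 to 0.259), SAS HT+RT, SAS HT+RT against HT and the difference of the RT responses. In FaDu, numbers 2 and 3 also correlated with each other (0.12 to 0.305) and replicate 1 with neither, so there the pattern sets replicate 1 apart and does not show 3 pairs. Correlations of the same number were not all above 0.1 in SAS HT (0.0215 to 0.168), the controls or the other differences. In SAS RT, libraries of different numbers correlated at -0.219 to 0.0205. The replicate numbers come from the labels alone, and blocked values are alternatives.

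Alternatives were a Wald test by DESeq2 1.42.0, normalization by RLE size factors, tests on unfiltered counts, the replicate block, all 4 groups of a line in 1 fit, the adjusted p alone, shares without division by length, and each library left out. Chosen after the data were seen were FaDu replicates 2 and 3 alone, shares with each library left out, every alternative for list genes and for members' medians, and a filter on the mean of log2(CPM + 0.1) for Pearson r. Promoter sequences are from RefSeq GRCh38.p14.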

Additional observations from a re-analysis of the deposited data

Results flagged for a closer look

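In a test of the difference itself, the responses of FaDu and SAS spheroids to heating differed past both thresholds for 6 of the 7 members. The larger response was in FaDu for each of these 6. FOSL2 differed the other way for HT, at -0.66 log2 (edgeR adjusted p 0.0073), under the fold threshold. For HT+RT FOSL2 stood at -0.26 (edgeR adjusted p 0.44). For HT the difference was 3.02 log2 for FOS, 1.81 for FOSB, 1.48 for FOSL1, 2.11 for JUN, 1.74 for JUNB and 1.28 for JUND. For HT+RT it was 3.11 for FOS, 1.86 for FOSB, 1.64 for FOSL1, 2.13 for JUN, 1.52 for JUNB and 1.25 for JUND. In HT+RT the irradiation dose differs between the lines, and line and dose cannot be told apart there; in HT both lines had the same heating. HT and HT+RT share their control libraries, so the 2 sets of differences are not independent. The FOSB difference was not altered without SAS control replicate 3, at 1.26 for HT and 1.30 for HT+RT, and for HT also not without SAS HT replicate 2 (1.75) or replicate 3 (1.73). The cause of the differences was not tested. With 3 libraries in a group, no library was tested for standing apart within its group.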

How the results depend on the processing

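In the comparisons of FaDu HT and FaDu HT+RT with control, all 84 alternative values of the member fold changes kept in each their direction and their call as altered or not, which takes both thresholds together. In SAS, 72 of 77 did so for HT and 73 of 77 for HT+RT, and for the differences between lines 116 of 119 for HT and 118 of 119 for HT+RT. For RT it was 76 of 84 in FaDu, 74 of 77 in SAS and 110 of 119 for their difference, for HT+RT against HT 81 of 84 and 74 of 77, and between the controls 70 of 77. The replicate block changed the call of no member outside the RT comparisons.

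The adjusted p taken by itself crossed 0.05 more often: in 21 of 84 values for FaDu RT, 5 for FaDu HT, 1 for FaDu HT+RT and 4 for FaDu HT+RT against HT, in 11 of 77 for SAS RT, 0 for SAS HT, 1 for SAS HT+RT, 0 for SAS HT+RT against HT and 5 between the controls, and in 3, 3 and 1 of 119 for the differences of the RT, HT and HT+RT responses. In FaDu HT all 5 were FOSL2, from 0.063 to 0.031 with DESeq2, 0.0046 with no filter, 0.0038 with the replicate block, 3.2e-06 with FaDu replicates 2 and 3 alone and 0.0021 without FaDu HT replicate 1. In FaDu HT+RT it was FOSL2, from 0.011 to 0.058 without FaDu control replicate 2. In FaDu HT+RT against HT it was FOSB, FOSL1 and FOSL2 with the replicate block, and FOSL2 with FaDu replicates 2 and 3 alone. In FaDu RT the replicate block put 6 members under it, all but FOSL2, beside 2.01% of all genes, and in SAS RT 4, FOS, FOSB, FOSL1 and JUN, beside 1.96%. Between the controls it was JUNB under 4 settings and FOS, from 0.88 to 0.0018 without SAS control replicate 3, and in SAS HT+RT it was JUNB, from 0.78 to 0.023 without that library. The JUNB settings between the controls include FaDu replicates 2 and 3 alone and the omission of FaDu control replicate 1, which are the same fit there.

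For FaDu RT, where 0 members were altered, DESeq2 gave 1 member, no filter on low counts 3, the replicate block 3, and FaDu replicates 2 and 3 alone, chosen after the data were seen, 1, beside 0.0707, 0.0867, 0.18 and 0.0934% of all genes in those fits. For SAS RT, also 0, no filter gave 1 and the replicate block 1, beside 0.104 and 0.17% of all genes, and leaving out 1 library gave 0 to 1. No filter gave 1 member, FOS, for the difference of the RT responses, and the adjusted p of FOS for that difference is missing in DESeq2. In FaDu RT, FOS stood at 2.24 log2 with and without the filter, while its edgeR adjusted p went from 0.6 to 5.7e-129. The RT calls without the filter thus rest on p values that do not reflect the spread among libraries. The adjusted p alone gave 5 members for SAS HT+RT in place of 3, beside 25.1% of all genes in place of 6.36%. Without division by length the FOS share was 3.86% in FaDu control, 52.2% in FaDu HT, 49.8% in FaDu HT+RT, 15.7% in SAS HT and 14.1% in SAS HT+RT, which the lengths of the other members account for by construction. Without it FOSL1 led the mean share in SAS HT at 22.7% beside 21.1% for JUN, and JUN was above FOSL1 in 2 of the 3 libraries. The cause of the other changes was not tested. The members' median log2 fold change fell from 0.98 to 0.36 for FaDu RT and from 0.47 to 0.15 for the difference of the RT responses without FaDu RT replicate 1, and from 0.43 to 0.27 for SAS RT without SAS RT replicate 2.

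Signs reversed only for fold changes that were not altered. With 1 library left out, JUN in FaDu HT+RT against HT ran from -0.23 to 0.10 (reversed at 0.10 and 0.04) and JUND there from -0.03 to 0.08. In SAS HT, FOSL1 ran from -0.32 to 0.07 (reversed at 0.07 and 0.02) and JUNB from -0.22 to 0.11. In SAS HT+RT, FOSL1 ran from -0.21 to 0.18 (also 0.09) and JUNB from -0.06 to 0.27 (also -0.01). In SAS HT+RT against HT, FOSL1 ran from -0.07 to 0.28 (also -0.05) and JUND from -0.02 to 0.18. Between the controls FOS ran from -0.18 to 0.59 (also -0.16 and -0.02). For the difference of the RT responses FOS ran from -0.01 to 1.78, FOSB from -0.03 to 0.79 and FOSL1 from -0.19 to 0.33 (also -0.10, -0.04 and -0.02). With FaDu replicates 2 and 3 alone that difference was -0.07 for FOS and -0.02 for FOSB. The cause was not tested.

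Limits: 3 libraries a group leave wide intervals for members whose replicates spread, above all FOS after RT in FaDu, and a fit without 1 library assumes that the libraries left vary like the others. Replicate 1 stood apart in every FaDu group. Counts are per gene and do not separate splice forms, nor reads of JUNB and HOOK2 if strands were not kept apart. The single time of 0.5 h gives no course, and mRNA says nothing of AP-1 protein or its activity. At 28 counts, FOSB in SAS control replicate 1 carries the largest relative counting error among the members.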
